A study of Mus musculus with 7 samples.

Results

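The accessibility of 9 developmental regulators of muscle that lie outside the Hox clusters was described in freshly sorted muscle stem cells (MuSCs). The genes were the homeobox genes Pitx1, Pitx3, Lbx1, Msx1, Meox1 and Meox2 and the T-box genes Tbx1, Tbx4 and Tbx5, which are 9 of the 21887 protein-coding genes on the chromosomes analysed. The rule that selects them uses gene names alone, for their roles in the position and origin of muscle, and no measured value. For each gene, every peak that overlapped its RefSeq span extended by 20 kb on both sides was taken from the peak list of each library, on mm10 (GRCm38), and a peak within 1 kb of an annotated transcription start was counted as a promoter peak.

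ATAC-seq, in which the Tn5 transposase cuts and tags open chromatin, was performed on MuSCs sorted from hindlimb muscle of male C57BL/6 mice in the second month of life. There were 4 libraries from Nedd4L-cKO mice (Nedd4L fl/fl Pax7 cre/+) and 3 from WT mice. In the cKO the E3 ubiquitin ligase gene Nedd4l, floxed at an exon of its catalytic domain, is recombined from the first expression of Pax7 onwards, which begins in the embryo, so the mutation is older than the adult MuSC. The peak lists hold no reads over the floxed exon, so the deletion was not checked against the labels here. Whether the WT mice carried Cre or a floxed allele is not stated in the sources used here. All 7 libraries were of hindlimb origin, so no library of head or forelimb muscle was compared, and position could be read only from which of these loci were open. According to the study each library came from its own mouse, so the replicates are animals.

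Homeobox and T-box proteins are DNA-binding transcription factors that give cells along the body their regional identity, and several remain expressed in adult muscle according to where that muscle formed. Pitx1 and Tbx4 act in the hindlimb bud and Tbx5 in the forelimb bud, whereas Tbx1 is required for the muscles of the pharyngeal arches. Lbx1 marks the muscle precursors that migrate from the somite into the limb, Msx1 holds such precursors undifferentiated, Meox1 and Meox2 pattern the somite and its muscle, and Pitx3 is switched on in differentiating muscle cells.

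The libraries held 14.4 to 20.1 M tags kept after removal of duplicates at the same position, and 69302 to 79158 peaks, with the deepest library Nedd4L-cKO replicate 4. Among marker genes listed to check the sort, 11 of 12 MuSC genes had a promoter peak in all 7 libraries, including Pax7 and Myf5. Of 6 immune genes none had a promoter peak in any library, and of 6 endothelial genes only Flt1 and Kdr did, both in all 7 libraries. Of 6 fibro-adipogenic genes, Col1a1 and Dpt were called in all 7 libraries, Dcn in 5 (2 cKO and 3 WT), Lum in 1 cKO library, and Pdgfra and Ly6a in none. The tendon gene Scx had a promoter peak in all 7 libraries, whereas the defining Schwann cell regulator Sox10 had none. Summed promoter pileups of these lists, which are not scaled to depth, overlapped between the genotypes in every list with a call, for example 413 to 602 over the MuSC list in the cKO and 430 to 505 in WT.

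The promoters of 5 of the 9 genes, with 6 starts, were found in the RefSeq table of GRCm38.p6. Those that bear on the calls are shown here from 250 bases before to 50 after the start, in the direction of transcription, with each CpG in capitals. By pileup, Pitx3 had the strongest promoter peak and Meox2 the weakest of those called in every library, Tbx4 was called at its inner start with few CpGs, and Tbx1 has an inner start with a peak beside it and an outer start without one. Lbx1, Meox1, Pitx1 and Tbx5 are named only.
Pitx3, chr19:46148276-46148575, minus strand: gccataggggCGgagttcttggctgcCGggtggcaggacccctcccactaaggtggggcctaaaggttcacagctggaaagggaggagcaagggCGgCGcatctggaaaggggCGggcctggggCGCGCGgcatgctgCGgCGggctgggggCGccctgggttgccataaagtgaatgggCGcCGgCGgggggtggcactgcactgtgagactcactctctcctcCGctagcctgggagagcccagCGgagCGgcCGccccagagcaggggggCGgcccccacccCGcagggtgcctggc
Tbx4 inner start, chr11:85896515-85896814, plus strand: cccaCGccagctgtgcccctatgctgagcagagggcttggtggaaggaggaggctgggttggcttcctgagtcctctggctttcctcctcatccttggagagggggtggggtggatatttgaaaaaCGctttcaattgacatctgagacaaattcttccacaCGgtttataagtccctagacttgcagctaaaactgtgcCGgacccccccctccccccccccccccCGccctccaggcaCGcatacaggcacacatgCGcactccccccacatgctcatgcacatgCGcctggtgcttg
Meox2, chr12:37108290-37108589, plus strand: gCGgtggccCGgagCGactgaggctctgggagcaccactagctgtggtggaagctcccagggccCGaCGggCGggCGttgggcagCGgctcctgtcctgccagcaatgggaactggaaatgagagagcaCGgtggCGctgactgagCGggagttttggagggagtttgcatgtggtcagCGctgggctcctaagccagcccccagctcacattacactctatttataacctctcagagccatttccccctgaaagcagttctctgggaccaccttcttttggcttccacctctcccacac
Tbx1 inner start, chr16:18588850-18589149, minus strand: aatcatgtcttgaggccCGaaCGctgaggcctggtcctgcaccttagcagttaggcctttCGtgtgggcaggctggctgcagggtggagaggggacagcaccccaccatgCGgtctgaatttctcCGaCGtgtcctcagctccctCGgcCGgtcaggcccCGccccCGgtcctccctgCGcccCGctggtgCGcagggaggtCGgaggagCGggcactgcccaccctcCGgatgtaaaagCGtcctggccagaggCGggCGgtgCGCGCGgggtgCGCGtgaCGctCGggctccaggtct
Tbx1 outer start, chr16:18590622-18590921, minus strand: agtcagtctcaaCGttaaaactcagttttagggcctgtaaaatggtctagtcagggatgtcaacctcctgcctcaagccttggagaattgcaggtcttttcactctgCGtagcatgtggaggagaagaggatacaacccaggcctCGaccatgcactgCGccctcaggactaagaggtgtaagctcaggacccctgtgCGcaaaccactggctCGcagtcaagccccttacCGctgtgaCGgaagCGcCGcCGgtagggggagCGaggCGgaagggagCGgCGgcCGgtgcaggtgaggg

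The printed windows differed in base composition. Pitx3 held 20 CpGs with 71.7% G or C, the inner start of Tbx1 26 with 69%, the outer start of Tbx1 16 with 58.3%, Meox2 12 with 60.7% and Tbx4 8 with 59%. Msx1, not printed, held 29 CpGs with 70% G or C. The medians over all 21263 such windows of protein-coding genes were 13 CpGs and 56.3%. Over all genes, a peak within 1 kb in all 7 libraries was found for 42.0% of starts with 5 to 9 CpGs, 79.4% of those with 10 to 14, 90.4% of those with 15 to 19 and 95.7% of those with 20 or more. The inner start of Tbx4 was called in a class where fewer starts were, and the outer start of Tbx1 had no peak in a class where 5.05% of starts had none.

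A search for 6 short motifs on both strands described the same windows. The E-box CANNTG, the letters bound by the MyoD family and present in 69.0% of all promoter windows, occurred 6 times at Tbx4, 2 times each at Pitx3 and the outer start of Tbx1, once at Msx1 and Meox2 and not at the inner start of Tbx1. TATAAA, present in 12.6% of all windows, occurred once each at the inner start of Tbx4 and at Meox2, in both on the strand opposite to the gene, and was absent from the other windows. CCAAT, present in 38.2%, occurred 2 times at Msx1 and in no other of these windows. The homeobox letters TAATTA, the letters TAATCC bound by PITX proteins and the T-box letters GGTGTGA, found in 4.53%, 6.42% and 3.68% of all windows, occurred in none of the 6 windows. No match overlapped another.

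Of the 9 genes, 7 had a promoter peak in all 7 libraries, against 63.4% of 21440 protein-coding genes with a start. These were Tbx4, Lbx1, Msx1, Meox1, Meox2, Pitx3 and Tbx1. Pitx1 was called in 6 libraries, as 5.26% of genes were called in some but not all, and Tbx5 in none, as were 31.3% of genes. The 2 hindlimb genes thus had a promoter peak in most or all of these hindlimb libraries and the forelimb gene in none. The pharyngeal gene Tbx1 had a promoter peak in all, although beside its inner start rather than on it. The starts compared were unequal. Tbx4 was called in all 7 libraries at its inner start and in 1 at its outer start. For Tbx5 and Pitx1 the outer end of the span was the only start used, so a peak at another start would not be counted. With 9 genes the count of 7 lies close to the share over all genes, and nothing particular to the list is read from it.

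The strength of a peak was given in 2 ways, each as a percentile within its own library from 0 for the weakest to 100 for the strongest peak. The pileup is the coverage of the peak by tags, and the fold enrichment is that coverage over the local background. By median pileup over the libraries the order was Pitx3 at the 97.7th percentile, Lbx1 at 92.7, Msx1 at 81.1, Tbx4 at 69.2, Tbx1 at 64.1, Meox1 at 56.2 and Meox2 at 12.9. Regions at the promoters of all protein-coding genes had a median of 85.2, so that 2 members stood above it and 5 below. The ranges over libraries did not overlap between Pitx3, Lbx1, Msx1 and Tbx4, nor between Meox2 and any other of these 7. The range of Tbx1, from 52.1 to 71.7, overlapped those of Tbx4 (68.4 to 70.8) and Meox1 (46.3 to 62.7). The ranges of Tbx4 and Meox1 did not overlap each other.

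By fold enrichment the order differed. Meox1 came first at a median percentile of 76.7, then Msx1 at 48.9, Meox2 at 34.9, Tbx4 at 32.7, Pitx3 at 21.5, Lbx1 at 12.5 and Tbx1 at 4.55, where the median of all promoter regions was 77.2. The local background, pileup divided by fold, was 19.3 at the Pitx3 promoter and 15.7 at Lbx1 in the median library, against 7.73 at promoter regions of all genes. The Lbx1 promoter region was 2776 bp long as merged over the libraries and that of Pitx3 1856 bp. In the plot of both percentiles by library, Pitx3 and Lbx1 lay at a lower percentile by fold than by pileup in every library of both genotypes. The fold percentile ran from 16.0 to 29.7 at Pitx3 and from 7.47 to 41.3 at Lbx1, where it was highest in cKO replicate 1.

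**Figure D1:**
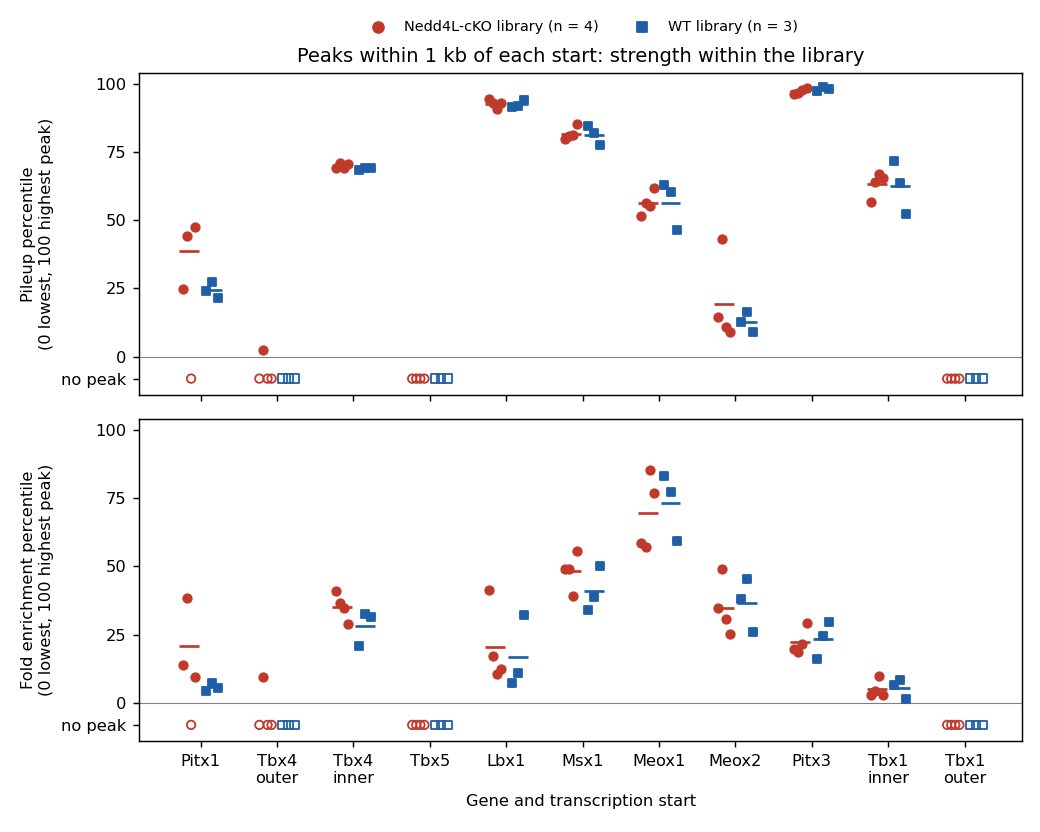
Pileup percentile (upper panel) and fold enrichment percentile (lower panel) of the strongest peak within 1 kb of each start, 1 symbol per library, circles for Nedd4L-cKO and squares for WT, with short lines at the mean of the libraries with a peak. Open symbols mark libraries with no peak. Pitx3 and Lbx1 lie above the 90th pileup percentile in all libraries, and no library has a peak at Tbx5 or at the outer start of Tbx1.

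Pitx1 (chr13:55825044-55836190, minus strand), the hindlimb homeobox factor that lies upstream of Tbx4, had a weak and inconstant promoter. A peak within 1 kb of its start was present in Nedd4L-cKO replicates 1, 2 and 4 and in all 3 WT libraries, with -log10 q between 1.33 and 3.16. The strongest such peak lay at pileup percentiles of 24.8, 44.2 and 47.4 in the 3 cKO libraries and 24.1, 27.5 and 21.5 in WT. The values of the genotypes overlapped, and the library without a peak, cKO replicate 3, was not the shallowest. These calls fell into 2 regions, 1 just inside the gene in 3 libraries and 1 centred 1050 bp upstream of the start in 5.

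In the Pitx1 window 2 of 9 regions had a peak in every library. The stronger of these was centred 14749 bp upstream of the start (chr13:55850571-55851308) and had a median fold percentile of 85.5. Its fold percentile was 84.3, 79.8, 92.1 and 96.8 in the cKO libraries and 85.5, 82.1 and 95.4 in WT, so the genotypes overlapped fully. In pileup it stood at a median percentile of 65.9. The Pitx1 window thus had a stronger constant region far from the start than at it.

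Tbx4 (chr11:85886367-85916097, plus strand), the T-box factor of the hindlimb bud, had a peak at its inner start in all 7 libraries and at its outer start in 1. A region of 2473 bp (chr11:85894926-85897398) over the inner start at 85896765 was called in all 7 libraries. Its pileup percentile was 69.2, 70.8, 69.3 and 70.4 in the cKO libraries and 68.4, 69.1 and 69.0 in WT, so that no library stood apart and the genotypes overlapped. At the outer start, cKO replicate 2 alone had a peak, at the 2.48th pileup percentile and with a -log10 q of 1.20.

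The strongest region of the Tbx4 window away from any start lay past the 3' end of the gene (chr11:85924162-85926202). Its fold percentile was 99.5, 90.4, 77.8 and 94.5 in the cKO libraries and 95.6, 94.6 and 98.9 in WT. It was the highest by median fold percentile (94.6) of the 32 constant regions in the 9 windows. The lowest library was cKO replicate 3, and the genotypes overlapped.

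Tbx5 (chr5:119796514-119885220, plus strand), the T-box factor of the forelimb bud and heart, had no promoter peak in any library. The outer end of the span was the only start used for Tbx5. Its window of 129 kb held 4 regions, and 1 was called in all 7 libraries. That region (chr5:119831043-119831878) lies 34946 bp into the gene, within 1 kb of the start of the non-coding RNA gene Gm5563, and had a median pileup percentile of 32.9. Its pileup percentile was 8.32, 34.7, 33.4 and 18.1 in the cKO libraries and 32.9, 25.7 and 40.5 in WT, which overlapped. Tbx5 had no region away from starts in all 7 libraries, against 2 at Pitx1 and 2 at Tbx4. Meox2 had none either, and Msx1 had 1.

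Lbx1 (chr19:45232684-45236841, minus strand), which marks the precursors that migrate into the limb, had an open promoter and many further regions. Its promoter region (chr19:45234552-45237327) covered more than the first kilobase of the gene. The pileup percentile was 94.4, 92.8, 90.6 and 92.7 in the cKO libraries and 91.4, 91.9 and 94.1 in WT. No library stood apart and the genotypes overlapped.

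In the Lbx1 window 6 of 10 regions were called in all 7 libraries. The strongest away from the start was centred 15627 bp downstream of it (chr19:45220578-45221850), beyond the 3' end of the gene, at a median of 76.1 by pileup percentile and 85.3 by fold percentile. Its fold percentile was 83.7, 86.0, 80.4 and 85.3 in the cKO libraries and 81.3, 87.0 and 91.1 in WT. The genotypes overlapped here as well. Another region, 6964 bp downstream of the start, had a similar pileup percentile (72.6) and a fold percentile of 3.02.

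Msx1 (chr5:37820491-37824585, minus strand), a homeobox repressor of muscle differentiation, had a promoter peak in all 7 libraries (chr5:37823138-37824985). Its pileup percentile was 79.6, 80.9, 81.1 and 85.2 in the cKO libraries and 84.4, 81.7 and 77.6 in WT. The genotypes overlapped, with the highest value in a cKO library and the lowest in a WT library. The other constant region of its window (chr5:37816710-37817933) lay 7264 bp downstream of the start, at a median pileup percentile of 53.2 and a median fold percentile of 56.8.

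Meox1 (chr11:101877510-101894354, minus strand), a somite homeobox gene, was with Meox2 the only member whose constant promoter ranked higher by fold than by pileup. The promoter region (chr11:101893564-101895110) had fold percentiles of 58.7, 57.0, 85.4 and 76.7 in the cKO libraries and 82.95, 77.3 and 59.1 in WT. Both genotypes held low and high libraries. A region 12363 bp inside the gene (chr11:101881324-101882658) was stronger still, at a median fold percentile of 87.1.

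Meox2 (chr12:37108540-37179534, plus strand), which patterns limb muscle, had 1 region in its 111 kb window, at the promoter (chr12:37107867-37109709). The pileup percentile was 14.6, 43.0, 11.03 and 9.13 in the cKO libraries and 12.9, 16.4 and 8.99 in WT. The value of cKO replicate 2 lay far above the other 6. It had the lowest median pileup percentile of the 7 constant member promoters, with a -log10 q of 1.91 to 3.62.

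Pitx3 (chr19:46135281-46148325, minus strand), a homeobox factor of differentiating muscle, had the strongest member promoter by pileup (chr19:46147119-46148974). Its pileup percentile was 96.3, 96.5, 97.7 and 98.5 in the cKO libraries and 97.3, 98.7 and 97.9 in WT. All 5 regions of its window were called in all 7 libraries, and no other window with more than 1 region was as constant. A region within the gene (chr19:46140543-46142782) had a median pileup percentile of 87.5, and 2 regions were at the starts of the neighbours Elovl3 and Gbf1, of which the one at Gbf1 was at 99.3.

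Tbx1 (chr16:18580979-18590671, minus strand), the T-box factor of pharyngeal muscle, had no peak within 1 kb of its outer start. The peak counted for the inner start at 18588899 had its nearer end 454 bp inside the gene (chr16:18587755-18588445), also within 1 kb of the start of the non-coding RNA gene Gm35369. Its pileup percentile was 56.5, 64.1, 67.0 and 65.4 in the cKO libraries and 71.7, 63.7 and 52.1 in WT, and its fold percentile 9.71 at most. The WT libraries held both the highest and the lowest pileup percentile.

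The Tbx1 window held 11 regions, the most of any member, and 7 of the 11 had a peak in every library. The strongest away from starts by pileup (chr16:18585809-18587147, median 67.4) also had a low fold percentile, with a median of 4.70. In contrast, a region past the 3' end (chr16:18573985-18575348) had fold percentiles of 67.3, 61.2, 67.5 and 49.3 in the cKO libraries and 70.0, 78.6 and 72.1 in WT, and here each WT library was above each cKO library. It was named for this separation after its values were seen.

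Exons and introns of the members were not placed, because an exon annotation on mm10 was not used here. The map of calls along each window shows the regions relative to the outermost start.

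**Figure D2:**
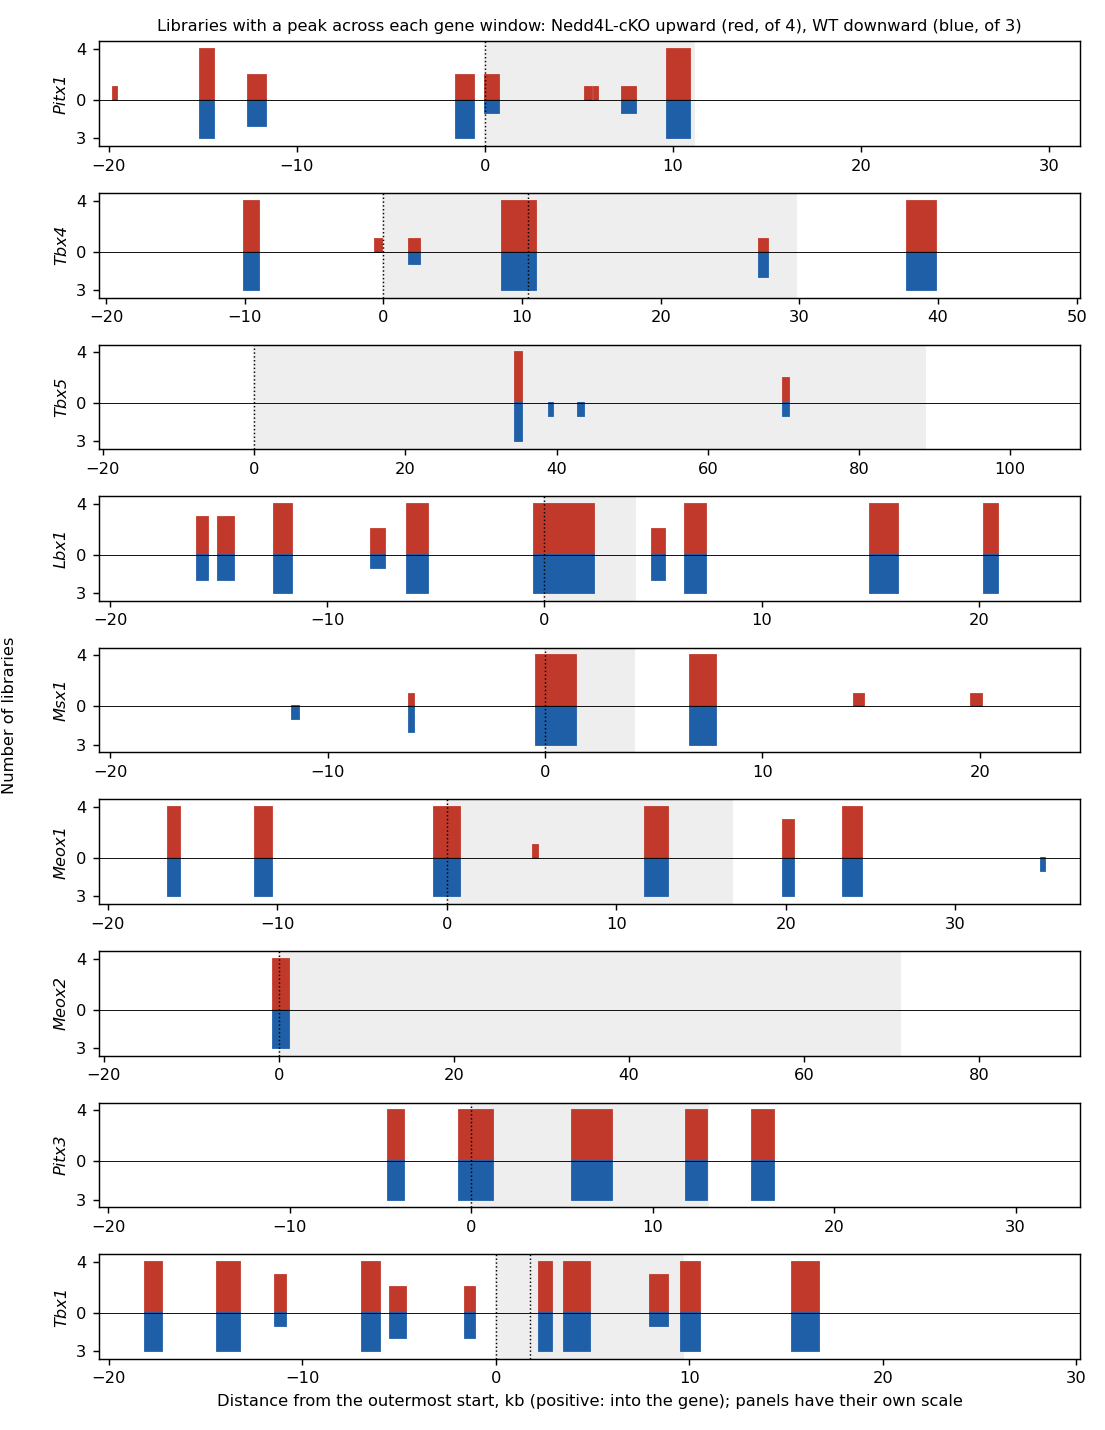
Regions in the 9 windows by distance from the outermost start in kb, with the number of Nedd4L-cKO libraries upwards (red, of 4) and of WT libraries downwards (blue, of 3), the gene span in grey and starts as dotted lines. Pitx3 has only constant regions, Meox2 has a single region, and the Tbx5 start has none.

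Peaks with both high pileup and low fold were placed by plotting the 2 medians against each other. The promoters of Pitx3, Lbx1 and Tbx1 lie in the lower right of that plot, together with regions of the Tbx1 and Lbx1 windows. The region past the 3' end of Tbx4 and the regions named above for Lbx1, Meox1 and Pitx1 lie in the upper right.

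**Figure D3:**
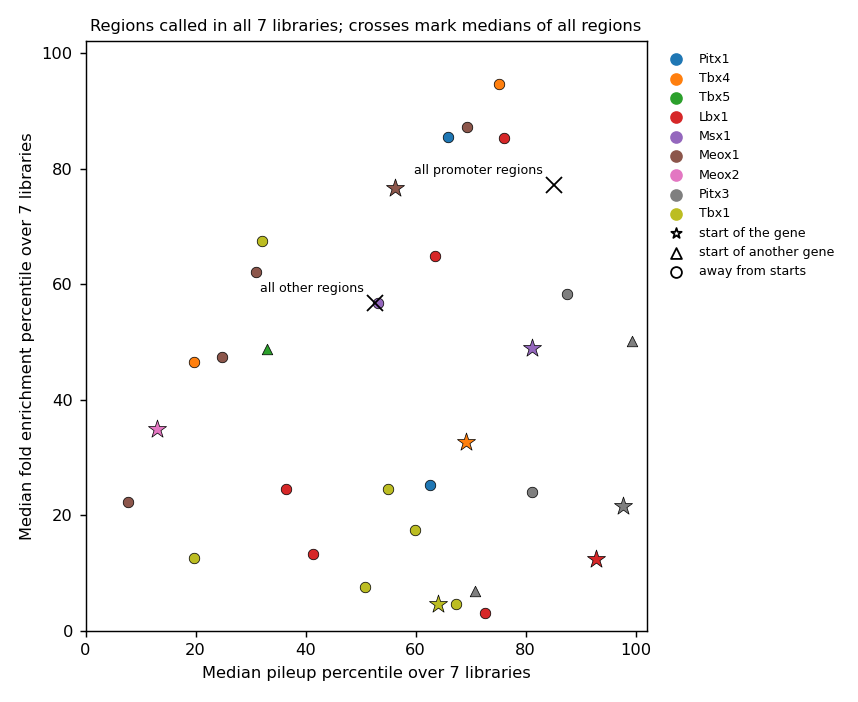
Median pileup percentile (x axis) against median fold enrichment percentile (y axis) over the 7 libraries for the 32 regions called in all of them, coloured by gene window, with stars at starts of the members, triangles at starts of other genes and circles elsewhere. Crosses mark the medians of all promoter regions (85.2 and 77.2) and of all other regions (52.6 and 56.7).

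By window, the members ranged from densely to sparsely open. The share of the window covered by peaks was 12.5% to 16.8% at Lbx1, 9.83% to 12.9% at Pitx3 and 10.1% to 13.4% at Tbx1. These compare with a median of 4.25% and quartiles of 1.19% and 7.84% over all protein-coding windows. The share was 6.05% to 8.57% at Meox1, 5.36% to 8.43% at Msx1, 5.13% to 6.79% at Tbx4 and 4.07% to 7.49% at Pitx1, ranges that overlapped each other. Meox2 (0.883% to 1.35%) and Tbx5 (0.423% to 2.2%) lay below, and their ranges overlapped. Among all windows the median percentile of a member ran from 96.1 for Lbx1 to 21.9 for Tbx5. The Pitx3 window also takes in the promoters of Elovl3 and Gbf1.

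**Figure D4:**
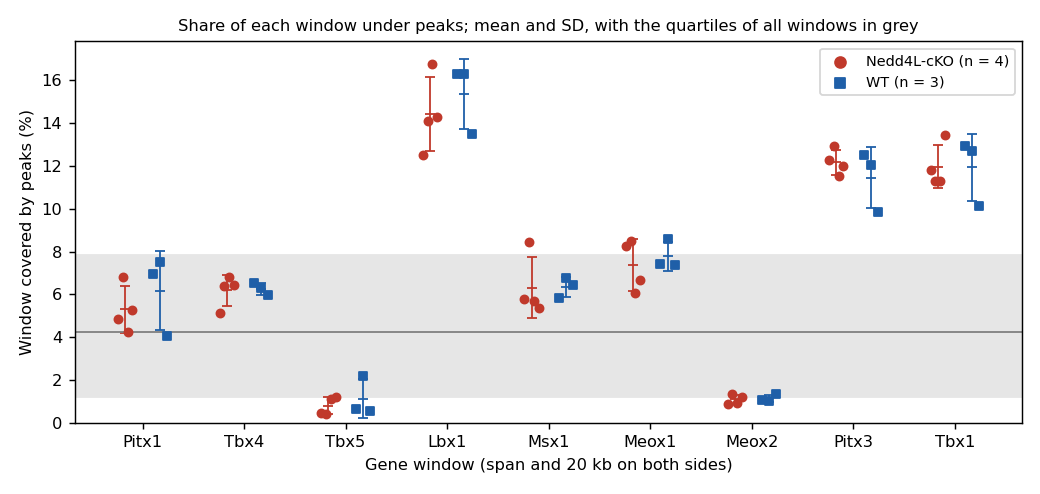
Share of each window covered by peaks in percent, 1 symbol per library, with mean and SD (error bars) for 4 Nedd4L-cKO and 3 WT libraries, and the median and quartiles of all protein-coding windows as a grey line and band. Lbx1, Pitx3 and Tbx1 lie above the band in all libraries, and the genotypes overlap in each window.

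Nedd4L-cKO and WT libraries were compared to ask whether the loss of Nedd4L alters accessibility at these loci. The covered length of the Pitx1 window was 2.71 ± 0.562 kb (SD, n = 4) in the cKO and 3.16 ± 0.942 kb (SD, n = 3) in WT, with a p of 0.457 by the exact permutation test. For Tbx4 it was 4.32 ± 0.508 kb and 4.36 ± 0.198 kb (exact p = 0.943), and for Tbx5 1.03 ± 0.521 kb and 1.45 ± 1.20 kb (exact p = 0.657). For all 3 limb genes the difference was smaller than the larger SD. Lbx1 had 6.37 ± 0.772 kb and 6.78 ± 0.718 kb (exact p = 0.486), Msx1 2.79 ± 0.627 kb and 2.80 ± 0.211 kb (exact p = 0.971), and Pitx3 6.46 ± 0.311 kb and 6.08 ± 0.756 kb (exact p = 0.486). Meox1 had 4.19 ± 0.679 kb and 4.42 ± 0.391 kb (exact p = 0.6), Meox2 1.22 ± 0.241 kb and 1.27 ± 0.175 kb (exact p = 0.743), and Tbx1 5.94 ± 0.503 kb and 5.93 ± 0.775 kb (exact p = 0.943). All tests were two-sided.

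In none of the 9 windows did the genotypes separate, where over all 17935 windows with a peak every cKO library was above every WT library in 1.87% and below in 1.27%. With 35 ways to split the libraries the smallest p is 0.0286, and after adjustment over all windows every p was 1, so the design cannot call a single window. An exact p under 0.05 was reached by 1.39% of all windows and by 0 members.

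The 9 windows held 60 merged regions. Each library had a peak at 32 of them (53.3%, against 56.0% of all 95163 regions) and 11 in 1 library (18.3%, against 14.7%). No region was present in every library of one genotype and absent from the other, a pattern shown by 0.0694% of all regions in favour of the cKO and 0.0820% in favour of WT. Per library 40 to 47 of the 60 regions were called, 41 to 43 in the cKO and 40 to 47 in WT, and the fewest were in WT replicate 3, the shallowest library.

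Ranks by fold enrichment, expressed as normal scores, were compared by limma over the 53245 regions called in all libraries. None of the 32 member regions passed an adjusted p of 0.05 (limma, lowest adjusted p = 1.00), and neither did any of the regions (0%). By unadjusted p under 0.05, limma gave 1 of the 32, lower in the cKO, and 3.98% of all regions (2.21% lower and 1.77% higher in the cKO). That region lay 23929 bp downstream of the Meox1 start, past the 3' end (chr11:101869884-101870966), and its score differed by -0.88 (SE 0.304, cKO minus WT), with a limma adjusted p of 1.00. Its fold percentile was 22.3, 17.4, 9.21 and 22.3 in the cKO libraries and 21.2, 70.3 and 47.0 in WT. The WT values spread widely and 1 of them lay among the cKO values. Its difference was -0.53 without WT replicate 2 and -1.23 without WT replicate 1, the extremes over the alternatives, with a limma adjusted p of 1.00 in both. The number of member regions with an unadjusted limma p under 0.05 was 0 without WT replicate 2, against 3.61% of all regions. It was 3 without WT replicate 1 (3.97% of all regions) and 3 without cKO replicate 1 (4.03%).

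In the other direction the lowest p belonged to the Msx1 promoter, with a difference of 0.18 (SE 0.181) and a limma adjusted p of 1.00. For the other member promoters the difference was 0.18 (SE 0.189) at Tbx4, 0.11 (SE 0.297) at Lbx1, 0.00 (SE 0.251) at Tbx1, -0.06 (SE 0.1702) at Pitx3, -0.06 (SE 0.240) at Meox2 and -0.12 (SE 0.294) at Meox1. Each was smaller than its SE. A missed threshold does not show that the genotypes are alike.

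Of the 32 member regions 10 had a higher score in the cKO and 22 a lower one, with a median difference of -0.07 against 0.01 over all regions. The median size of the difference was 0.131, against 0.157. The fold percentiles of the genotypes separated at 1 of 32, the Tbx1 region past the 3' end, against 4.96% of all regions, and its limma difference was -0.40 (SE 0.215, limma adjusted p = 1.00).

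The promoters of related developmental genes were counted in 3 lists, chosen by the position of the tissue in which the genes act. Of 18 limb genes 16 (88.9%) had a promoter peak in all 7 libraries, of 12 genes of head and pharyngeal mesoderm 10 (83.3%), and of 13 genes of the somite and of migrating limb precursors 9 (69.2%), against 63.4% of all protein-coding genes. Isl1, which acts in both tissues, is counted in the limb and in the head list. Meis1 and Tbx18, both called in all 7 libraries, are counted in the limb and in the somite list. The difference between the lists was not tested. The lists were not matched to all genes by CpG count, with which the share called over all genes rose as given above.

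In the limb list the T-box gene Tbx3 had the highest median pileup percentile of those called throughout, at 92.8, and the homeobox gene Dlx6 the lowest, at 19.1. Lmx1b, which sets the dorsal side of the limb, was called in 5 libraries and Dlx5 in 3. In the head list Six2 was highest at 97.9 and Alx1 lowest at 16.8. Nkx2-5, a heart regulator, was called in 2 libraries and Hand2 in 5.

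In the somite list Gab1, an adaptor in the signalling that drives migration, was highest at 99.0 and Mesp2, a somite segmentation gene, lowest at 53.2. Uncx was called in no library, and Tbx6 and Nkx3-2 in 4. None of the genes named here as called in some libraries separated the genotypes, since each had a peak in at least 1 cKO and 1 WT library.

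**Figure D5:**
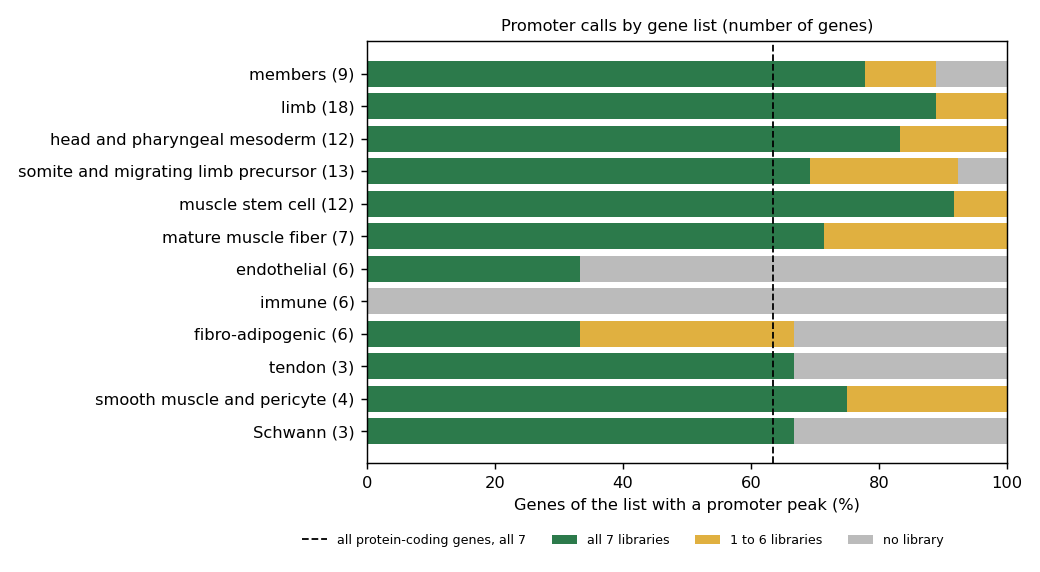
Share of the genes in each list with a promoter peak in all 7, in 1 to 6 or in no library, in percent, with the number of genes in brackets. The dashed line marks the 63.4% of all protein-coding genes called in all 7 libraries, and all immune markers were called in none.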

How the data were processed

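ATAC-seq was performed on 4 Nedd4L-cKO and 3 WT libraries of sorted MuSCs, grouped by the genotype in their labels. The study's methods and processing notes name Trimmomatic 0.39, BWA-MEM 0.7.17 on mm10, SAMtools, Picard 2.26.3 and MACS2 2.2.7.1. The authors called broad peaks separately in every library, using no control and pooling no replicates.

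The pileup is, per the file headers, a coverage signal that is not scaled to depth. The fold enrichment deposited by the authors is the ratio of that coverage to the local background of the same library, so that a high surrounding signal lowers it. The deposited p-value and q-value are given as -log10. The blocks marked in the gapped lists deposited by the authors served to find broad peaks that hold a narrow one. Since depths differed (14.4 to 20.1 M kept tags) and fold and pileup come from separate runs, peak strength at the members was compared by ranks within a library, and pileups as such were given only as values and summed over marker lists. A peak that is missing was not called at that depth, which is not the same as closed chromatin.

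Peaks on chromosomes 1 to 19, X and Y were used. Starts were the outer end of the RefSeq span and the starts of the RefSeq promoter table, found for 21440 of 21887 protein-coding genes (98.0%), and promoter sequences are RefSeq, GRCm38.p6. A genome of another build was not used. Peaks overlapping by at least 1 bp were merged into regions. Fold ranks of regions called in all libraries were turned into normal scores, in units of 1 SD, and tested with limma 3.58.1 (R 4.3.3, all 7 libraries, no covariate, Benjamini-Hochberg adjustment over 53245 regions). Covered bases were compared by two-sided exact permutation tests over 35 splits, adjusted over 17935 windows. No pair of libraries shared a peak with identical ends and pileup (0 at most). The limma and permutation steps were first tested on simulated data. With the scores of 200 regions shifted in the cKO, limma recovered 0% of them at a shift of 1 SD. It recovered 57% at 1.5 and 81.5% at 2. Software versions were matplotlib 3.10.9, pandas 2.3.3, scipy 1.17.1, numpy 2.4.6 and Python 3.11.15.

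The members, gene lists and tests were chosen with earlier results of these data known, although the rule for the members uses names alone. Named were all members and each region at a member promoter. In each window the constant region away from starts with the highest median pileup percentile was named. The rule also took any region called in every library of a genotype and in no library of the other. It further took the region with the lowest limma p in each direction. Genes of highest and of lowest median pileup percentile in each list were named, as were marker genes of the sort. Some listed genes enter the counts and are otherwise not reported here. Alternatives were other promoter widths, flanks, peak strengths, peak numbers, ranks by pileup, trend and robust options, a replicate block, and leaving out each library. WT replicate 3 was sequenced on another lane than the rest according to its name, and no other batch was given.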

Additional observations from a re-analysis of the deposited data

Results flagged for a closer look

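Within the 4 Nedd4L-cKO libraries, replicate 2 lay far from the other 3 in 2 of the 23 member measures that were examined for extreme values, and chance alone marks about 1 in 20. The covered length of the Msx1 window was 3.72 kb in that library against 2.36 to 2.56 kb in the other 3, a gap of 0.854 of the whole range. The pileup percentile of the Meox2 promoter was 43.0 against 9.13 to 14.6, a gap of 0.838 of the range. Its fold percentile was 48.9 against 25.2 to 34.9. Depth of this library (15.1 M kept tags) was within the range of the others.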

How the results depend on the processing

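No member region passed an adjusted limma p of 0.05 under any of the 12 alternatives. None was called in every library of a genotype and in no library of the other under any of the 10 run for that count. With peaks of -log10 q of at least 5 alone, 4 instead of 7 members (Tbx4, Lbx1, Msx1 and Pitx3) had a promoter peak in all libraries, against 53.5% of all genes, and 1 instead of 0 windows (Tbx1) separated the genotypes, against 3.07% of all windows. The number of member promoters called in all remaining libraries was 7 to 8 on leaving out each library in turn, with Pitx1 joining without Nedd4L-cKO replicate 3, against 63.4% to 63.7% of all genes. It was 6 with a promoter of 0.5 kb, without Tbx1 (61.8% of all genes), and 5 with the outermost start alone, without Tbx4 and Tbx1 (59.7%). Windows that separated the genotypes numbered 0 to 1 on leaving out each library, Msx1 without Nedd4L-cKO replicate 2 and Pitx1 without WT replicate 3, where 5.80% and 8.96% of all windows did. The same replicate numbers did not deviate together (r of -0.123, 0.0330 and -0.122 over all regions), so that they share a number only, and with a replicate block 0 member regions passed limma and 0 member windows differed in 1 direction in all 3 pairs, where 22.7% of all windows did. The sign of small differences, such as those of the Msx1 window, the Meox2 promoter and the upstream Pitx1 region, changed between alternatives. The promoter peaks of Pitx1, Meox2 and Tbx1 reached a -log10 q of 5 in no library.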

Other observations

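Regions of strong coverage over a high local background were more frequent among the member regions than over the genome, a pattern chosen after the values were seen and given as a description. A median pileup percentile over 50 together with a median fold percentile under 25 was found at 10 of 32 constant member regions (31.2%) and at 4923 of all 53245 (9.25%). Of the 10, 5 lay in the Tbx1 window, 3 in the Pitx3 window and 2 in the Lbx1 window. They include the promoters of Pitx3, Lbx1 and Tbx1. The regions of a window are neighbours, so they are not independent.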
